A study of Mus musculus with 15 samples.

Results

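Transcripts of the acute response in mouse whole heart were followed from its height at 2 and 3 h into the next 2 times, 4 and 5 h. The comparison used 8 of the 15 arrays of the series, chosen by sample title alone: 4 arrays from 4 and 5 h against 4 from 2 and 3 h. Each window held 1 control and 1 aldosterone array at each of its times, and the arm entered the fit as a covariate. The aldosterone arm was injected with aldosterone, the adrenal mineralocorticoid, and neither its dose nor the treatment of the timed controls is given in the labels. The control heart at 0 h was labelled as not injected. Strain, sex and age are not given in the sources used here, nor is whether an array stands for 1 heart or a pool. A p-value here therefore rests on array-to-array spread alone, part of which may be technical. The question was which transcripts of the early wave decayed, which persisted and which rose late.

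An inflammatory or stress signal reaching the heart's vessels activates NF-kB, a transcription factor that turns on adhesion molecules, chemokines and also its own inhibitors. Many of these messages carry AU-rich elements and are short-lived, so that their level follows their transcription closely. Interferon-stimulated genes and acute phase proteins are known as a later layer, since several of them need a secreted cytokine or a newly made transcription factor.

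Levels are given as log2(signal + 167.8) after quantile normalization of the 15 arrays, so differences of weak transcripts are understated, and levels are not compared between probe sets. The start is the mean of 3 arrays, control at 0 and 0.5 h and aldosterone at 0.5 h. Deposited array medians ran from 413.8 to 540.2 on the 8 arrays, and the number of arrays limits the precision. The arrays were scanned on 3 days. Day 1 held the 3 h pair, day 2 the 4 h pair and day 3 both the 2 h and the 5 h pair, so only 5 h against 2 h (2 arrays against 2) could be compared within a day. The 10 markers of ventricular and common cardiomyocytes, the defining transcripts of the labelled tissue, had a mean of 17.57 to 17.63 on each of the 8 arrays. None of 8 skeletal muscle markers passed the filter on low signals.

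No probe set of the 22286 tested was called in either direction for 4 to 5 h against 2 to 3 h (0.0% called higher, 0.0% called lower; limma with Benjamini-Hochberg adjustment, smallest adjusted p = 0.109). At an unadjusted limma p under 0.05 there were 829 higher (3.72%) and 679 lower (3.05%), and without quantile normalization 706 higher and 971 lower. All 4 later arrays lay above all 4 earlier ones for 596 probe sets (2.67%) and below them for 307 (1.38%). The 95% interval lay within a 2-fold change for 19505 probe sets (87.5%), with a median SE of 0.19. The change differed between the arms for no probe set by limma (0.0%; 401 at an unadjusted p under 0.05, 1.8%). Leaving out 1 array gave 0 to 6 calls, all lower: 3 without aldosterone at 2 h, 6 without aldosterone at 3 h and 1 without aldosterone at 5 h, with 2 calls for the difference of the arms without aldosterone at 2 h. Dropping both 3 h arrays gave 16 called lower, dropping both 4 h arrays 8, and with scan day as a block 27 lower and 1 higher.

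Between 2 h and 5 h on the shared scan day, limma called 56 probe sets as risen (0.251%) and 152 as fallen (0.682%), in 43 and 102 genes. Below, "rose" and "fell" refer to this test of 5 h against 2 h, and the window difference over all 8 arrays stands beside it. Of those called, 54 and 151 had the same direction over the 8 arrays, which include the same 4, and 17 and 29 had no overlap between the windows. Both arrays of a time shared their time and scan day, so this test may understate the error of the time effect. With 2 arrays a time and the arm fitted, limma borrowed most of the spread of a probe set from other probe sets. The adjusted p values of this test therefore rest little on replicates of the gene itself. For Car3 the SE was 0.20 in this test and 1.11 over the 8 arrays. Among genes of the 20 response lists, each read by its 1 list probe set, 17 rose and 28 fell, and with any probe set of a gene counted 20 rose and 29 fell. Over all 11567 tested genes, each read by 1 probe set, 33 rose and 92 fell. The response lists held 336 tested pairs of list and gene. Their members were chosen with earlier results of these data known, so their counts are not independent of the data. The 5 h hearts also held less atrial and fat transcript than the 2 h hearts, as described further on. Leaving out every gene of the 13 cell type lists gave 56 risen and 141 fallen probe sets. This removed only the listed markers and not other genes of those tissues. The part of tissue content in these calls was not tested.

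Endothelial adhesion molecules had the lowest median of any response list, -1.59 over 5 tested genes against 0.05 over all 11567 genes, and 4 of the 5 fell, against 0.682% of all probe sets. Icam1, the endothelial ligand of leukocyte integrins, read 14.19 and 13.33 in control and 14.32 and 11.76 with aldosterone at 2 and 3 h, and 12.06 and 11.33 in control and 12.16 and 11.35 with aldosterone at 4 and 5 h. Its level at 2 h stood above every other array of the windows, and the windows overlapped only through aldosterone at 3 h, which was already low. The window difference was -1.68 ± 0.48 (SE, n = 4 arrays a window; limma adjusted p = 0.668), and Icam1 fell 7.54-fold from 2 h to 5 h (limma adjusted p = 1.35e-09). It was still 1.54 above its start of 10.18 ± 0.30 (SD, n = 3) at 4 to 5 h.

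Vcam1, which binds the integrin VLA-4 on monocytes and lymphocytes, read 13.97 and 13.35 in control and 13.70 and 12.20 with aldosterone at 2 and 3 h, and 12.11 and 11.47 in control and 11.86 and 11.42 with aldosterone at 4 and 5 h. All 4 later arrays lay below all 4 earlier ones, and within each arm each later time read lower than the one before it. The difference was -1.59 ± 0.31 (limma adjusted p = 0.346), with a fall of 5.27-fold from 2 h to 5 h (limma adjusted p = 3.64e-08). A second probe set of Vcam1 had -1.78 ± 0.21, the smallest p of the comparison, and the remaining one had -0.02.

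The selectins, which tether rolling leukocytes, returned to different heights. Sele, the inducible E-selectin of endothelium, read 11.50 and 10.25 in control and 10.34 and 8.95 with aldosterone at 2 and 3 h, and 8.80 and 8.96 in control and 8.60 and 8.30 with aldosterone at 4 and 5 h. At 4 and 5 h it was back near its start of 8.91 ± 0.30 (SD, n = 3), which aldosterone had reached by 3 h, and it fell 4.91-fold from 2 h to 5 h (limma adjusted p = 0.00066). Selp, the P-selectin of platelets and endothelium, read 12.10 and 12.30 in control and 12.12 and 11.43 with aldosterone at 2 and 3 h, and 10.86 and 10.62 in control and 11.83 and 10.52 with aldosterone at 4 and 5 h. It fell 2.91-fold (limma adjusted p = 0.000239) yet stood 2.78 above its start at 4 to 5 h, and aldosterone at 4 h overlapped the earlier window. The 6 tested general endothelium markers had a median difference of -0.09 between the windows and 0.04 between 5 h and 2 h, and each of their intervals lay within a 2-fold change. In whole hearts, fewer cells of a type and less RNA per cell cannot be told apart.

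NF-kB subunits and inhibitors had a median of -0.41 over 11 tested genes. Of these 9 had a lower mean at 4 to 5 h, against 4685 of all 11567 genes, and 6 fell from 2 h to 5 h, against 92. All 6 are known NF-kB targets, while the subunits Rela, Nfkb2 and Rel had window differences of -0.32, -0.08 and 0.02 without a call. Nfkbia encodes IkB-alpha, the inhibitor that holds NF-kB in the cytoplasm and is resynthesised on activation. It read 16.51 and 15.81 in control and 16.52 and 15.36 with aldosterone at 2 and 3 h, and 15.16 and 14.67 in control and 15.03 and 15.06 with aldosterone at 4 and 5 h. No later array reached the earlier ones, the difference was -1.07 ± 0.24 (limma adjusted p = 0.458), and Nfkbia fell 3.14-fold from 2 h to 5 h (limma adjusted p = 3.97e-08). Of the 4 later arrays 3 lay within 1 SD (0.12, n = 3) of its start of 15.13.

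The other 4 probe sets of Nfkbia differed by -1.19 to -0.35, all lower. Tnfaip3 encodes A20, the ubiquitin-editing inhibitor of the pathway, and read 12.68 and 11.10 in control and 12.56 and 10.40 with aldosterone at 2 and 3 h, and 10.50 and 10.29 in control and 10.53 and 10.52 with aldosterone at 4 and 5 h. The 4 later arrays lay close together, and aldosterone at 3 h had already reached that range. Tnfaip3 fell 4.64-fold from 2 h to 5 h (limma adjusted p = 1.18e-06), with a window difference of -1.23 ± 0.44.

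Bcl3, a nuclear IkB protein, read 11.15 and 10.90 in control and 11.32 and 10.98 with aldosterone at 2 and 3 h, and 10.51 and 9.55 in control and 10.15 and 10.10 with aldosterone at 4 and 5 h. Its windows did not overlap (-1.01 ± 0.21), it fell 2.66-fold from 2 h to 5 h (limma adjusted p = 0.004), and at 4 to 5 h it was still 1.65 above the start. Birc3, a ubiquitin ligase of TNF receptor signalling, fell by 1.21 (log2; limma adjusted p = 0.00294), Nfkbiz, another nuclear IkB protein, by 1.06 (limma adjusted p = 0.0207), and Tnfaip2 by 0.89 (limma adjusted p = 0.022). Nfkbiz is named because it completes the 6 called genes, after its values were seen.

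The promoters of 3 of these inhibitor genes are shown because all 3 genes fell and are textbook NF-kB targets. Each runs from 250 bases before to 50 after the most upstream start listed by RefSeq on GRCm38.p6, 5′ to 3′, with matches to the kappaB consensus on either strand in capitals. Nfkbia lies at chr12:55492598-55492897 (minus strand), Bcl3 at chr7:19822706-19823005 (minus strand) and Tnfaip3 at chr10:19015361-19015660 (minus strand). The matched stretches begin 29 bases before the start in Nfkbia, 3 bases into the transcript in Bcl3, and 125 and 12 bases before the start in Tnfaip3.
Nfkbia: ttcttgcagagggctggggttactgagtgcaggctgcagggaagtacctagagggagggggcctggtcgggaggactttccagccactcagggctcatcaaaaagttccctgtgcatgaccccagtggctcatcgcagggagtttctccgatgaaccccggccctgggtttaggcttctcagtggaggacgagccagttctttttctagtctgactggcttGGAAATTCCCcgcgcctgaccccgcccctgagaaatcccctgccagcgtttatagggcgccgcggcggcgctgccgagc
Bcl3: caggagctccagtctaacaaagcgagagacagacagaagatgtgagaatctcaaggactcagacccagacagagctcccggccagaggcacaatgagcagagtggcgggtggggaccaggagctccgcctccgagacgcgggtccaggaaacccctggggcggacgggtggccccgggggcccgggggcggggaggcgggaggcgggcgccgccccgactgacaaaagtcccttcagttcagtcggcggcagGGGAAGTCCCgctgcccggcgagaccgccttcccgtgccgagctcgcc
Tnfaip3: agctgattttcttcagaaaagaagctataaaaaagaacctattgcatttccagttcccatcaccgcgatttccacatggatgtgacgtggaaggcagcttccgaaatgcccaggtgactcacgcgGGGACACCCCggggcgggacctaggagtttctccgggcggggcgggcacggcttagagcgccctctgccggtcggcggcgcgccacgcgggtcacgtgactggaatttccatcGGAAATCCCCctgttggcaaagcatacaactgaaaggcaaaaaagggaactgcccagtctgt
A match to this consensus was found in 6 of the 10 promoters of tested genes of this list (60.0%), in 5 of 15 of the cytokine list (33.3%) and in 1168 of 27025 promoters of all genes (4.32%). Among adhesion molecules 0 of 3 promoters with an entry held one. A match describes the letters and not a bound site.

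Feedback on cytokine signalling was led by Socs3, the suppressor that blocks JAK kinases below the IL-6 receptor family. It read 12.71 and 12.28 in control and 12.25 and 11.23 with aldosterone at 2 and 3 h, and 10.67 and 10.61 in control and 10.81 and 10.65 with aldosterone at 4 and 5 h. All 4 later arrays lay below the earlier ones, close together and on average 2.08 above the start of 8.60. The difference was -1.44 ± 0.25 (limma adjusted p = 0.346), and Socs3 fell 3.61-fold from 2 h to 5 h (limma adjusted p = 1.97e-05). Its other probe sets differed by -1.65 and -1.26. The other 14 genes of that list held none that fell or rose, and the median of the list was -0.05.

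Cytokines and chemokines were mixed: 12 of 20 had a lower mean at 4 to 5 h, against 4685 of all 11567 genes. The median was -0.09, and 4 genes fell, against 92 of all, while none rose. Cxcl10, an interferon- and NF-kB-induced chemokine for T cells, read 11.71 and 11.95 in control and 11.11 and 10.05 with aldosterone at 2 and 3 h, and 10.52 and 9.75 in control and 9.32 and 10.43 with aldosterone at 4 and 5 h. Aldosterone at 3 h lay inside the later range, and Cxcl10 fell 2.49-fold from 2 h to 5 h (limma adjusted p = 0.0163). Cxcl1, a neutrophil chemokine, did not overlap between windows (-1.07 ± 0.17) and ended below its start. It fell by 1.02 (limma adjusted p = 0.0418).

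Ccl2, the monocyte chemokine, fell by 1.12 (limma adjusted p = 0.0209) but stood 1.03 above its start at 4 to 5 h. Csf1, the macrophage growth factor, fell by 1.05 (limma adjusted p = 0.00234) and ended 0.01 from its start. Its 3 other tested probe sets had window differences of -0.86 to 0.08, 1 of them higher. Ccl5, a late chemokine in T cells and macrophages, had 0.60 between the windows without a call. Cxcl9, induced by interferon-gamma, had -0.82 in control and 1.26 with aldosterone, and no overall direction held.

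The acute phase list divided into genes that decayed and genes that went on. Cebpd, a C/EBP transcription factor of the acute phase response, read 14.48 and 13.72 in control and 14.24 and 13.24 with aldosterone at 2 and 3 h, and 12.88 and 11.35 in control and 12.59 and 11.80 with aldosterone at 4 and 5 h. Every later array lay below every earlier one, and Cebpd fell 6.9-fold from 2 h to 5 h (limma adjusted p = 4.61e-09; window difference -1.77 ± 0.35). Its second probe set had -0.42. Ptx3, a soluble pattern recognition molecule of vessels, fell 3.57-fold (limma adjusted p = 0.000169) and kept 1.82 of its 3.00 (log2) above the start.

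Hp, the haemoglobin scavenger haptoglobin, which is also made by fat, fell by 1.74 (limma adjusted p = 0.00025), with fat markers lower in the same arrays. The part of fat in that value was not tested for Hp.

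Lcn2, the siderophore-binding lipocalin of innate immunity, went the other way and read 11.37 and 11.36 in control and 11.10 and 11.09 with aldosterone at 2 and 3 h, and 11.97 and 11.81 in control and 12.12 and 11.88 with aldosterone at 4 and 5 h. Its windows did not overlap, but neither test called it (0.71 ± 0.14; limma adjusted p = 0.346, and 0.323 for 5 h against 2 h). It stood 2.96 above its start at 4 to 5 h and read 12.17 on average at 12 h. Saa3, an acute phase apolipoprotein, read 10.47 and 10.85 in control and 10.43 and 10.56 with aldosterone at 2 and 3 h, and 11.32 and 11.28 in control and 11.73 and 11.28 with aldosterone at 4 and 5 h. Later arrays all lay above earlier ones (0.82 ± 0.17; limma adjusted p = 0.382), and the 12 h mean was 11.66. Lbp, which carries bacterial lipopolysaccharide, was above all earlier arrays by a smaller step (0.32 ± 0.12). Neutrophils also make Lcn2, and the 8 tested neutrophil markers had a median difference of -0.06 between the windows.

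Immediate early transcription factors had 16 of 20 genes with a lower mean, against 4685 of all 11567 genes, and a median of -0.16. From 2 h to 5 h 3 fell, against 92 of all, and none rose. Myc, a growth-promoting transcription factor, read 10.61 and 10.42 in control and 10.98 and 9.55 with aldosterone at 2 and 3 h, and 9.67 and 8.63 in control and 9.20 and 9.05 with aldosterone at 4 and 5 h. Aldosterone at 3 h lay just inside the later range, and Myc fell 3.87-fold from 2 h to 5 h (limma adjusted p = 0.00294; window difference -1.25 ± 0.33). Fosl2, an AP-1 subunit, did not overlap between the windows (-1.18 ± 0.26) and fell 3.69-fold (limma adjusted p = 2.86e-06). Its second probe set had -0.34. Egr1, a serum-induced zinc finger factor, fell by 0.96 (limma adjusted p = 0.0257) with a window difference of only -0.17.

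Nr4a1, an orphan nuclear receptor, was near its start at 2 to 3 h and lower afterwards. It read 12.92 and 12.88 in control and 12.47 and 12.87 with aldosterone at 2 and 3 h, and 11.23 and 12.43 in control and 11.81 and 11.73 with aldosterone at 4 and 5 h. The windows did not overlap (-0.99 ± 0.22), the 2 to 3 h level lay -0.26 from the start of 13.05, and neither test called it. Junb, another AP-1 subunit, had -0.83 ± 0.32, with -1.39 in control and -0.27 with aldosterone. Klf10, a TGF-beta-induced Kruppel-like factor, was the exception with a higher level and no overlap (0.67 ± 0.17; limma adjusted p = 0.607).

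Zfp36 encodes tristetraprolin, the protein that destroys AU-rich messages, and read 13.65 and 13.08 in control and 13.50 and 12.50 with aldosterone at 2 and 3 h, and 12.42 and 12.23 in control and 12.38 and 12.42 with aldosterone at 4 and 5 h. It did not overlap between windows, fell 2.37-fold (limma adjusted p = 0.000293) and was back at its start of 12.45. The antiproliferative gene Tob1 had 0.42 and the polo-like kinase gene Plk2 0.51, both higher at 4 to 5 h without a call.

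The inducible chaperone gene Hspa1b, which refolds proteins after stress, read 12.20 and 11.85 in control and 11.58 and 12.44 with aldosterone at 2 and 3 h, and 10.32 and 10.27 in control and 11.46 and 10.80 with aldosterone at 4 and 5 h. The windows did not overlap (-1.31 ± 0.25; limma adjusted p = 0.346), and Hspa1b fell 2.56-fold from 2 h to 5 h (limma adjusted p = 0.0059). Another probe set, the one that stands for the gene in the lists, overlapped between the windows (-1.18 ± 0.31) and fell 2.73-fold (limma adjusted p = 0.00222). Hspa1a, its near-identical copy, had -0.74, and the array may not part these copies. Probe sets ending in _x_at or _s_at, among them those of Cxcl1 and Mt1, can detect related transcripts. The cytosolic heat shock list as a whole had a median of -0.02 over 19 genes. Ddit4, the stress-induced mTOR inhibitor REDD1, did not overlap between windows (-0.97 ± 0.24) and fell 2.97-fold (limma adjusted p = 1.75e-05).

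Interferon-stimulated genes were the broadest late group: 24 of 26 had a higher mean at 4 to 5 h (92.3%, against 59.5% of all 11567 tested genes), the median was 0.42 against 0.05 over all genes, and 15 had an unadjusted limma p under 0.05 on the higher side, where 3.72% of all probe sets lay. From 2 h to 5 h 6 rose and none fell, against 33 and 92 of all 11567 genes. The list median over the start climbed from 0.25 at 2 h and 0.52 at 3 h to 0.87 at 4 h, 0.89 at 5 h and 0.85 at 12 h. By arm, the median window difference was 0.25 in control and 0.66 with aldosterone, and the difference between arms was called for no member.

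Oasl2, an oligoadenylate synthetase-like antiviral protein, read 10.73 and 11.30 in control and 10.64 and 10.68 with aldosterone at 2 and 3 h, and 11.65 and 11.68 in control and 11.50 and 12.18 with aldosterone at 4 and 5 h. All later arrays lay above all earlier ones, with control at 3 h the highest of the early window. It rose 2.37-fold from 2 h to 5 h (limma adjusted p = 0.00453; window difference 0.92 ± 0.20), and the 12 h mean was 12.02. Ifit3, which binds viral RNA complexes, read 10.98 and 12.12 in control and 10.65 and 11.16 with aldosterone at 2 and 3 h, and 12.26 and 11.79 in control and 11.85 and 12.46 with aldosterone at 4 and 5 h. Control at 3 h overlapped the later window, and the highest aldosterone array of the 8 was that of 5 h. Ifit3 rose 2.48-fold (limma adjusted p = 0.00454; window difference 0.86 ± 0.28).

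Ifit2 of the same family rose 2.24-fold (limma adjusted p = 0.0126), and Cmpk2, a mitochondrial nucleotide kinase beside the antiviral gene Rsad2, rose 2.26-fold (limma adjusted p = 0.0105). Irf7, the transcription factor that amplifies type I interferon, rose 1.97-fold (limma adjusted p = 0.0299), and Oas1a, which makes the activator of RNase L, 1.95-fold (limma adjusted p = 0.0321). Irf7 and Oas1a are named after their values were seen, to complete the called genes. Ifih1, the RNA sensor MDA5, did not overlap between windows (0.79 ± 0.16) and narrowly missed the call (limma adjusted p = 0.0584 for 5 h against 2 h). Usp18, the brake on interferon receptor signalling, had 0.75 ± 0.23 and Rsad2 0.55 ± 0.17, neither called. The 2 members with a lower mean were Stat2, part of the interferon-activated factor itself, with -0.49, and Herc6 with -0.19. Another probe set of Herc6 had 0.87.

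**Figure D1:**
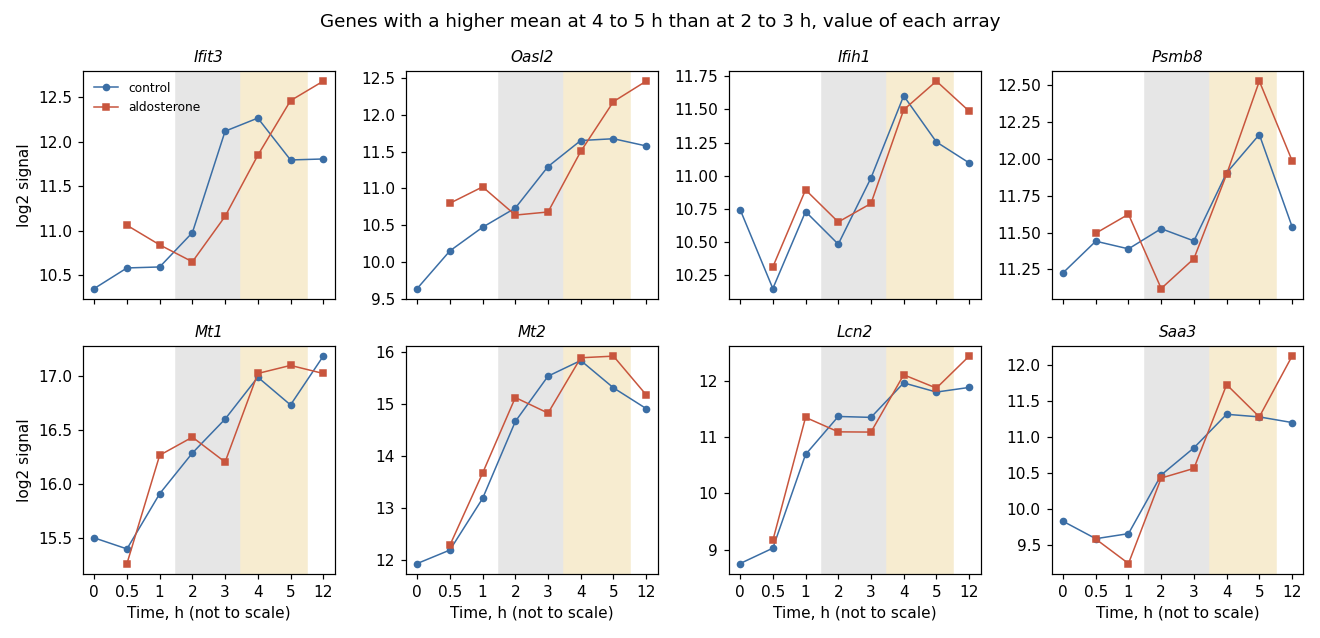
Level of 8 transcripts on each of the 15 arrays (y axis, log2 signal) by time in hours (x axis, not to scale), with circles for control, squares for aldosterone, grey for 2 to 3 h and yellow for 4 to 5 h. The genes of the upper row leave their early range between 2 and 4 h, while Mt1, Mt2 and Lcn2 are higher at each time from 1 h on than at 0.5 h.

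Macrophages express many of these genes, and the 12 tested macrophage markers had a median window difference of 0.06, a mean of 11.58 to 11.87 on the earlier arrays and 11.52 to 11.99 on the later ones, and none was called. The 1 T and NK cell marker that passed the filter had -0.06.

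The promoters of Ifit3 and Rsad2 are shown because nearly all of the interferon list had the same direction. They were taken from RefSeq on GRCm38.p6 in the same way, at chr19:34583279-34583578 (plus strand) for Ifit3 and chr12:26456403-26456702 (minus strand) for Rsad2, with matches to the interferon-stimulated response element core (GAAA, any 2 bases, GAAA, on either strand) in capitals. In Ifit3 the matches begin 156 and 122 bases before the start, and in Rsad2 the match begins 120 bases before it.
Ifit3: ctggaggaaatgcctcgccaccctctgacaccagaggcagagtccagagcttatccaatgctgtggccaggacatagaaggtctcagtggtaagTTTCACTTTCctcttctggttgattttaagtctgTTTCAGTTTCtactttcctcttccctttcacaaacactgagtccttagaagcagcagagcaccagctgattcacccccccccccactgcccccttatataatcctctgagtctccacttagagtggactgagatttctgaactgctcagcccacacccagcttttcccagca
Rsad2: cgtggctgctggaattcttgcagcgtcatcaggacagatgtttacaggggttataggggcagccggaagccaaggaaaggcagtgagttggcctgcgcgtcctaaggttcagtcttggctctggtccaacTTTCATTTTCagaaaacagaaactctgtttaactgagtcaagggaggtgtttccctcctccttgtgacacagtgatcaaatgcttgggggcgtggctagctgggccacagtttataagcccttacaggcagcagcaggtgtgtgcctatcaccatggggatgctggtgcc
The core was present in 9 of 19 promoters of tested interferon-stimulated genes (47.4%) and in 7 of 16 of the Irf1 and GTPase list (43.8%), against 944 of 27025 over all genes (3.49%).

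Irf1, the interferon regulatory factor that is itself an early NF-kB target, had the opposite direction to most genes of its list, several of which it is known to activate. Irf1 read 13.84 and 13.37 in control and 13.72 and 12.70 with aldosterone at 2 and 3 h, and 12.73 and 12.91 in control and 12.51 and 12.59 with aldosterone at 4 and 5 h. It fell 2.04-fold from 2 h to 5 h (limma adjusted p = 0.00159), and aldosterone at 3 h overlapped the later window. In its list of interferon-induced GTPases and class I presentation genes 17 of 20 had a higher mean (85.0%, against 59.5% of all genes), with a median of 0.10. Of the list 2 rose from 2 h to 5 h, against 33 of all 11567 genes.

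Psmb8, the immunoproteasome subunit LMP7, read 11.53 and 11.44 in control and 11.12 and 11.32 with aldosterone at 2 and 3 h, and 11.91 and 12.17 in control and 11.90 and 12.53 with aldosterone at 4 and 5 h. The windows did not overlap (0.77 ± 0.17), and Psmb8 rose 2.03-fold (limma adjusted p = 0.0193). Gbp2, a guanylate-binding GTPase, rose 2.07-fold (limma adjusted p = 0.00354), though control at 3 h was its highest array of the 8. Psmb10, another immunoproteasome subunit, had 0.38 ± 0.12 without overlap, and Nlrc5, the activator of class I genes, 0.72 ± 0.25, neither called. The class I genes H2-K1 and H2-D1 and their light chain gene B2m had 0.12, 0.07 and 0.06.

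Metallothioneins bind zinc and are induced by metals, glucocorticoids and cytokines. Mt1 read 16.28 and 16.60 in control and 16.43 and 16.20 with aldosterone at 2 and 3 h, and 16.99 and 16.73 in control and 17.02 and 17.10 with aldosterone at 4 and 5 h. The windows did not overlap (0.58 ± 0.11), Mt1 rose 1.47-fold from 2 h to 5 h (limma adjusted p = 0.0085), and it read 17.10 on average at 12 h. Mt2 read 14.67 and 15.54 in control and 15.13 and 14.83 with aldosterone at 2 and 3 h, and 15.84 and 15.31 in control and 15.89 and 15.92 with aldosterone at 4 and 5 h. Control at 5 h lay below control at 3 h, so the windows overlapped, and Mt2 rose 1.65-fold (limma adjusted p = 0.00383), standing 3.60 above its start at 4 to 5 h. The zinc importer gene Slc39a10 had 0.59 ± 0.20 without a call, and Mtf1, the zinc-sensing factor that drives metallothioneins, -0.33.

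The Mt2 promoter at chr8:94172368-94172667 (plus strand), from RefSeq on GRCm38.p6, is shown because the gene kept the greatest height over its start of those described. Matches to the metal response element core (TGCGCNC or TGCACNC, either strand) are in capitals, 3 before and 1 after the most upstream listed start.
Mt2: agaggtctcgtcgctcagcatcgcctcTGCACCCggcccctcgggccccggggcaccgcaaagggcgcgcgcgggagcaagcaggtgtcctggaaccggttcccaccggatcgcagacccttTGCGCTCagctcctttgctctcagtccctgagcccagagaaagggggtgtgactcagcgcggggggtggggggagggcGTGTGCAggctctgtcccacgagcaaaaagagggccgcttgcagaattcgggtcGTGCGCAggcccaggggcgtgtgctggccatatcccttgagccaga
The core was found in 3 of 5 promoters of the metallothionein and zinc transporter list (60.0%) and in 6923 of 27025 over all genes (25.6%). Lists of other genes held it at similar or higher shares, among them 9 of 15 promoters of the immediate early factors (60.0%), 2 of 3 of the adhesion molecules (66.7%), 7 of 13 of the FoxO targets (53.8%) and 8 of 16 of the clock genes.

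A further set was low at 2 to 3 h and came back. Aplnr, the apelin receptor of endothelium, read 11.53 and 11.65 in control and 11.85 and 11.72 with aldosterone at 2 and 3 h, and 12.42 and 12.56 in control and 12.48 and 12.73 with aldosterone at 4 and 5 h. It lay -1.28 from its start of 12.97 in the first window and -0.42 in the second, without overlap (0.86 ± 0.12; limma adjusted p = 0.314), and rose 1.94-fold from 2 h to 5 h (limma adjusted p = 0.0127). Nrarp, the Notch-induced inhibitor of Notch signalling, read 10.43 and 10.63 in control and 10.49 and 10.71 with aldosterone at 2 and 3 h, and 11.23 and 11.68 in control and 11.18 and 11.71 with aldosterone at 4 and 5 h. It too had been low (-1.17 from the start) and rose 2.35-fold (limma adjusted p = 0.00435; window difference 0.88 ± 0.17).

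G0s2, an inhibitor of the fat-splitting lipase ATGL, went from -0.65 to 0.06 relative to its start and rose 1.8-fold (limma adjusted p = 0.0355). It is also expressed in fat, of which 3 of 6 tested markers fell from 2 h to 5 h. The part of fat in the G0s2 value was not tested. Ets2, an ETS transcription factor, went from -0.41 to 0.19 without overlap (0.60 ± 0.11), did not pass, and had a second probe set at -0.55. C3ar1, the receptor of complement C3a, had 0.73 ± 0.15 and Dand5, a secreted antagonist of Nodal and BMP signals, 1.20 ± 0.23, both without overlap and without a call. Neither was clearly low before: at 2 to 3 h they lay -0.25 and -0.54 from starts with an SD of 0.49 and 0.83. At 4 to 5 h C3ar1 stood 0.48 and Dand5 0.66 above the start.

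Of the 21 tested genes of fatty acid oxidation and PPAR targets 3 rose from 2 h to 5 h, against 33 of all 11567 genes, and none fell. Pdk4, the kinase that shuts off pyruvate oxidation, rose 2.32-fold from 2 h to 5 h (limma adjusted p = 9.55e-07), with control at 3 h among its high arrays. Angptl4, an inhibitor of lipoprotein lipase, rose 2.16-fold (limma adjusted p = 0.0183), from a level below its start at 2 h. Ucp3, a mitochondrial carrier, rose 2.2-fold (limma adjusted p = 0.00482). The median window difference of the list was 0.09, against 0.05 over all genes. Herpud1, part of ER-associated degradation, was above all earlier arrays (0.56 ± 0.14) and rose 1.57-fold (limma adjusted p = 0.0316), while the 16 ER chaperone genes had a median of 0.02.

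Corticosteroid receptor targets did not move as 1 group: the median of 25 genes was -0.14, with 5 that rose (Angptl4, Mt1, Mt2, Pdk4 and Txnip) and 4 that fell (Cebpd, Ddit4, Errfi1 and Nfkbia). Of all 11567 tested genes 33 rose and 92 fell. Txnip, the thioredoxin-binding regulator of glucose uptake, rose 1.79-fold, and Errfi1, an inhibitor of EGF receptors, fell 1.79-fold (limma adjusted p = 0.0031 and 0.0485), both named after their values were seen. Zbtb16, a glucocorticoid-inducible transcriptional repressor, had differences of -0.60, -0.26 and 0.53 on its 3 tested probe sets, with no common direction.

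Clock genes had 15 of 18 with a higher mean (83.3%, against 59.5% of all genes) and a median of 0.11. Dbp, a clock output factor, rose 2.43-fold and Nr1d1, the repressor REV-ERB-alpha, 2.07-fold (limma adjusted p = 0.00651 and 0.00534; both named after their values were seen). Their windows overlapped. Ribosome biogenesis (median 0.09, 21 genes), MAP kinase feedback (-0.05, 12), amino acid stress (0.06, 14), FoxO targets (0.12, 17) and vascular and matrix response genes (-0.05, 19) had 0, 1, 1, 1 and 1 genes that fell (Errfi1, Phgdh, Ddit4 and Ccn2) and none that rose. Of all 11567 genes 92 fell and 33 rose. Tef and Per3, 2 further clock genes, lay above all earlier arrays (0.26 and 0.42), as did the mitophagy gene Bnip3 (0.29), without a call. Among the vascular and matrix genes, Adamts4, an aggrecan-cleaving protease, had -0.96 ± 0.25 and Lox, the collagen cross-linking enzyme, 0.49 ± 0.14, both without overlap and without a call.

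**Figure D2:**
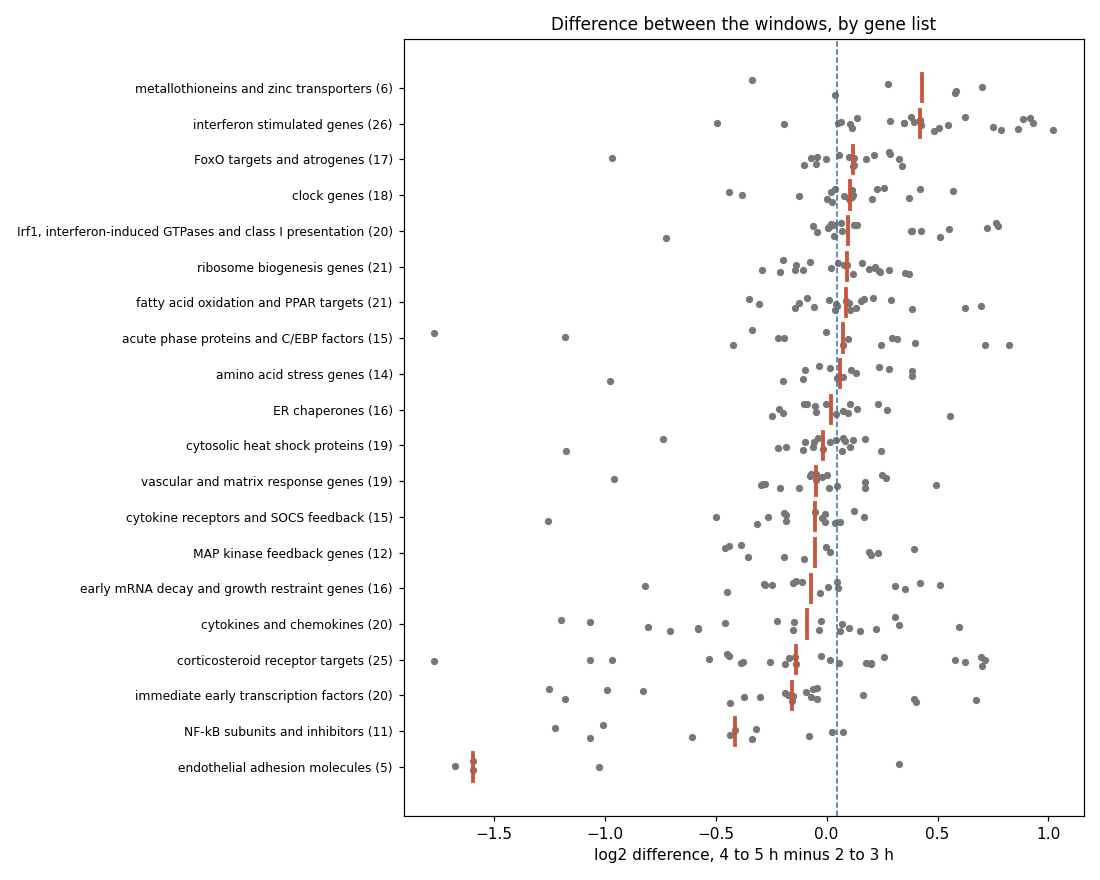
Difference between the windows (x axis, log2, 4 to 5 h minus 2 to 3 h, 8 arrays) of each tested gene (grey points) in 20 response lists (y axis, number of tested genes in brackets). Red bars mark list medians and the dashed line the median of all tested genes, 0.05. Adhesion molecules (-1.59) and NF-kB genes (-0.41) lie lowest, and metallothioneins (0.43) and interferon-stimulated genes (0.42) highest.

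**Figure D3:**
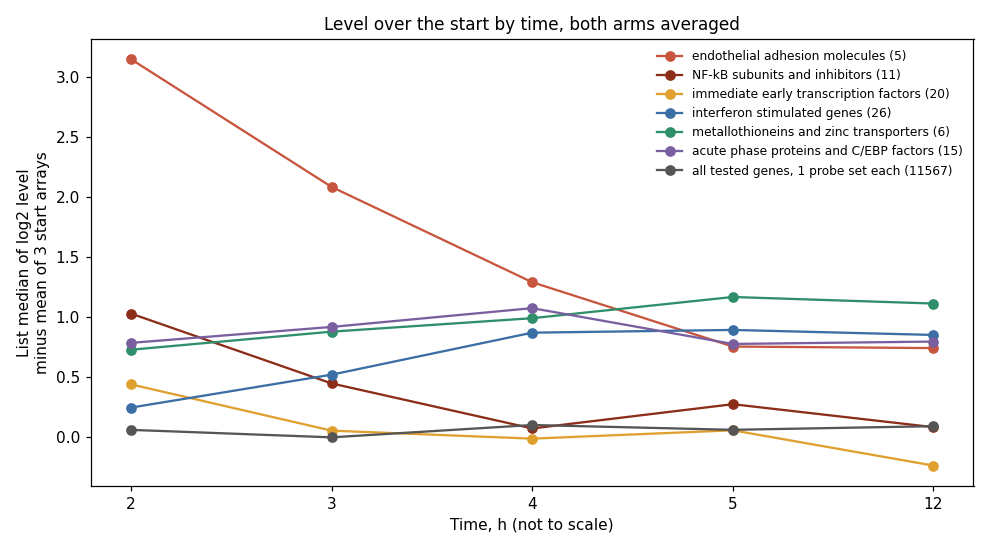
Median level over the start (y axis, log2, mean of both arms) of 6 response lists and of all tested genes at 2, 3, 4, 5 and 12 h (x axis, not to scale). Adhesion molecules go from 3.14 at 2 h to 0.75 at 5 h, and interferon-stimulated genes go from 0.25 to 0.89.

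To ask what became of the early wave as a whole without choosing on the values then read, it was chosen in 1 arm and followed in the other. A probe set belonged to the wave of an arm when its 2 and 3 h arrays both lay above the start arrays of that arm (0 and 0.5 h in control, 0.5 h with aldosterone) and their mean was at least 1 (log2) higher. The control arm gave 582 probe sets, of which 264 (45.4%) were lower at 4 to 5 h in the aldosterone arm, against 47.0% of all tested probe sets. Over 2-fold lower were 20 (3.44% against 0.853%), and over 2-fold higher 20 (3.44% against 0.521%). Within 1.5-fold lay 458 of the 582, against 20661 of all 22286 tested. The aldosterone arm gave 537, of which 254 were lower in control (47.3% against 45.7%), 37 over 2-fold lower (6.89% against 1.92%) and 11 over 2-fold higher (2.05% against 0.529%). In the arm that was read these sets had risen by a median of 0.30 and 0.23, and changed from there by a median of 0.05 and 0.04. With the deposited scaling the waves of 336 and 447 probe sets had risen by 0.43 and 0.019 and changed by -0.05 and -0.04, and 54.5% and 53.7% were lower, against 51.5% and 50.1% of all. The waves shared 99 probe sets, 17.0% of the control wave and 18.4% of the aldosterone wave.

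With a threshold of 2 in place of 1 the waves held 64 and 44 probe sets, which had risen by a median of 1.17 and 1.12 in the other arm. Of these 38 (59.4%) and 27 (61.4%) were lower at 4 to 5 h, against 47.0% and 45.7% of all tested probe sets. Median changes were -0.10 and -0.52. Over 2-fold lower were 11 (17.2% against 0.853%) and 14 (31.8% against 1.92%). Still over 2-fold above the start were 33 and 20, against 668 and 739 of all 22286. The lowest changes in the arm that did not choose them were those of Icam1, Vcam1 and Cebpd from both waves, Sele, Ighm and Hebp1 from the control wave, and Cxcl10, Pfkfb3 and Pck1 from the aldosterone wave. Pfkfb3, which drives glycolysis, fell 7.05-fold from 2 h to 5 h (limma adjusted p = 1.39e-07). The highest changes were those of Ifit2, Ifit3, Cmpk2, Oasl2, Cxcl9 and Smim27 from the control wave, and Slfn4, Hectd3, Ncf4, Sdk2, Rps19bp1 and Gm5617 from the aldosterone wave. Slfn4, a myeloid Schlafen gene, had 1.20 ± 0.29 over the 8 arrays and Smim27 1.18 ± 0.21, both without overlap and without a call.

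Other genes among the smallest p values of the window comparison, none called, were also lower at 4 to 5 h. Napb, a SNAP protein of vesicle fusion, had -1.60 ± 0.31 and fell 3.96-fold from 2 h to 5 h (limma adjusted p = 0.0113). Dennd6b (-0.82 ± 0.15) and Irf2bp2, a transcriptional corepressor (-0.81 ± 0.15), fell too (limma adjusted p = 0.00984 and 0.000725). Cbln1 (-0.85 ± 0.16), Septin11 (-0.72 ± 0.12) and the casein kinase gene Csnk1d (-0.71 ± 0.14) did not pass. The 4 other tested probe sets of Csnk1d ran from -0.42 to 0.34, 1 of them higher. On the higher side Tnrc6a, of the microRNA silencing complex, had 0.72 ± 0.15.

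For the difference of the change between the arms the smallest p values, none called, belonged to Scgb1a1, Adcy5, Clptm1, Gpx4 and Lman2. Scgb1a1, a marker of airway club cells, had -3.37 in control and 1.10 with aldosterone. Lman2, a lectin of the secretory pathway, had -0.18 and 1.38, and Gpx4, the lipid peroxide-reducing enzyme, -0.14 and 1.03. Adcy5, an adenylyl cyclase of heart muscle, had -1.77 and 0.01. Over both arms Gpx4 had 0.45 and its other tested probe set -0.12. Adcy5 had -0.88 over both arms and its other tested probe set -0.01.

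Atrial and fat markers were lower in both 5 h hearts than on the other 6 of the 8 arrays. Atrial markers had a mean of 14.05 to 15.53 at 2 to 3 h and 12.77 to 15.18 at 4 to 5 h, with both 5 h hearts at the bottom and both 4 h hearts high. From 2 h to 5 h 4 of the 5 fell, with differences of -2.62 for Sln, -2.32 for Myl7, -2.15 for Myl4 and -1.31 for Nppa. Fat markers ran from 11.58 to 13.34 and then 10.54 to 12.41, and 3 of 6 fell, with differences of -4.53 for Car3, -2.89 for Adipoq and -2.03 for Retn. Of all 11567 genes 92 fell. Ighm, the immunoglobulin M heavy chain of B cells, fell by 2.96 (limma adjusted p = 1.00e-07), while Ms4a1, the gene of CD20 and the other tested B cell marker, had -0.01. The part of these tissues in the other values was not tested beyond the covariates given here.

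Pck1, the gluconeogenic and glyceroneogenic enzyme that fat expresses strongly, fell by 2.47 (limma adjusted p = 0.00383) in those arrays. Its window difference of -0.63 became 0.074 with the mean of Adipoq, Car3 and Retn as a covariate, tried after seeing the data. These are the fat markers that fell, and Cidea and Fabp4, with 0.07 each from 2 h to 5 h, were not part of it. Phgdh, of serine synthesis, fell by 2.39 (limma adjusted p = 6.52e-06) and had its lowest values of the 8 arrays at 5 h. With the mean of Adipoq, Car3 and Retn or that of the atrial markers Sln, Myl7 and Myl4 as a covariate, no probe set was called over the 8 arrays, as without them.

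The Gapdh 3′/5′ ratio, a measure of RNA and labelling quality, was above 2 (log2) on 3 of the 8 arrays, aldosterone at 2 h (3.36), control at 4 h (3.21) and aldosterone at 4 h (2.17). Without them, an alternative added after seeing the data, 10 probe sets were called by limma as lower at 4 to 5 h and none as higher.

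**Figure D4:**
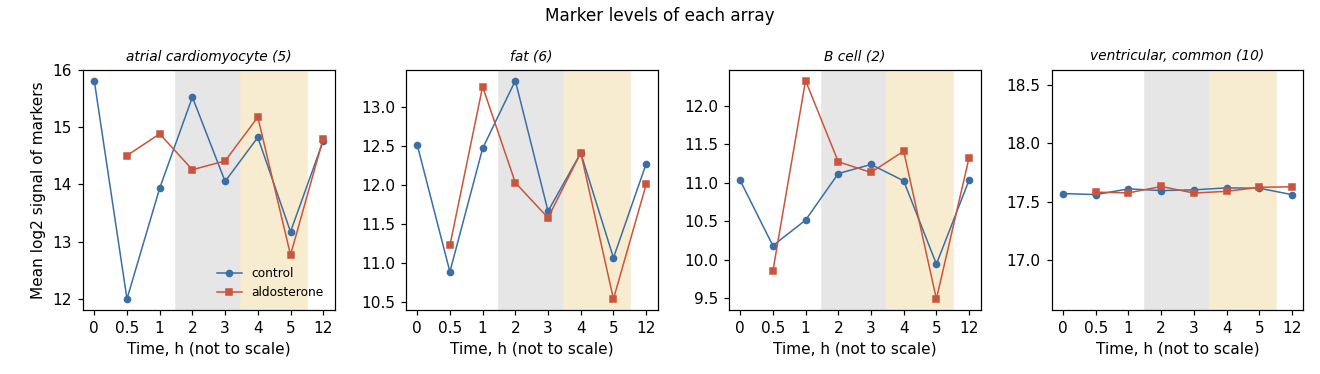
Mean level of the tested markers (y axis, log2 signal, number of markers in brackets) of 4 cell types on each of the 15 arrays by time in hours (x axis, not to scale), with circles for control, squares for aldosterone, grey for 2 to 3 h and yellow for 4 to 5 h. Both 5 h hearts are low in atrial and fat markers and in the mean of the 2 B cell markers, where Ighm alone fell, and the ventricular mean stays between 17.56 and 17.63.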

How the data were processed

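The deposited value table holds linear signal intensity per probe set of 15 Affymetrix mouse arrays, made by the authors with GCOS 1.2 per the submitters' processing notes. Each array had a 2% trimmed mean of 1500 in that table. Scan day, chip lot and station, which are of other units, were read from the deposited experiment files, per the file headers, and the station differed between the arms only at 5 h. Gene symbols came from the platform annotation (34958 of 45101 probe sets with 1 symbol, 932 with several, 9211 with none).

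Signals were quantile normalized over 15 arrays, because array medians ran from 413.8 to 741.4, and log2 values were taken with a pseudocount of 167.8 (the 25th percentile of the table). Testing was limited to 22286 probe sets whose mean signal reached 526.7, the table's median, in limma 3.58.1 (R 4.3.3) with window and arm, a variance trend and Benjamini-Hochberg adjustment, call under 0.05. The steps were tested on simulated data. Arrays were grouped by title. Intensities carry no counting depth, so the number of arrays and the signal over background limit the precision.

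The members and the 20 response and 13 cell type lists were chosen with earlier results of these data known. Lists use 1 probe set per gene, the tested one with the highest mean, and 336 of 398 pairs of response list and gene were tested. Named genes are up to 12 per direction by smallest p with the same direction in both arms, up to 5 per list by moderated statistic, up to 6 per direction for each wave, and 5 for the difference of the arms. Other genes are said to be named after their values were seen. Promoters came from RefSeq (GRCm38.p6), 27025 genes, 1 start each. Alternatives covered scaling, pseudocount, filter, variance model, block, RNA quality, tissue markers and left-out arrays.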

Additional observations from a re-analysis of the deposited data

Results flagged for a closer look

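Among the 99 named probe sets, each looked at in both windows, an array stood far from the other 3 of its window in 13 cases. The rule was Dixon's ratio of the gap to the range above the 95% critical value for 4 samples, by which chance flags about 1 in 20 groups. The count of 13 is near that rate.

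Aldosterone at 4 h stood apart in 4 of them at 4 to 5 h. It was the highest array for Saa3 (11.73, ratio 0.919), Ccl2 (10.66, ratio 0.930), and the lowest for Cxcl1 (10.57, ratio 0.863), while Scgb1a1, an airway marker, was its highest (10.13, ratio 0.893). Control at 5 h was the lowest of the later window for Tnfaip3 (10.29, ratio 0.886), Lbp (11.31, ratio 0.949) and Mt2 (15.31, ratio 0.862). Control at 4 h was the highest for Herpud1 (14.98, ratio 0.932).

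At 2 to 3 h, aldosterone at 2 h was the lowest array for Nr4a1 (12.47, ratio 0.877) and stood apart for Tob1 (13.85, ratio 0.864) and Lbp (11.20, ratio 0.894). Control at 3 h was the highest for Oasl2 (11.30, ratio 0.855), and control at 2 h stood apart for Gm5617 (7.68, ratio 0.904). The Gapdh 3′/5′ ratio of aldosterone at 2 h was also the highest of the 8 arrays (3.36, log2), and its part in these values was not tested.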

How the results depend on the processing

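The count of 0 probe sets called higher at 4 to 5 h became 1 with scan day as a block and 56 within the scan day that holds both windows. The count of 0 called lower became 27 and 152 under these settings, 6 with the Gapdh ratio fitted, 16 after dropping both 3 h arrays, 8 after dropping both 4 h arrays, 10 without the 3 arrays of high Gapdh ratio (added after seeing the data), and 0 to 6 without single arrays. The 0 called for a difference between the arms became 0 to 2 without single arrays. Under the other alternatives run, these counts were 0. The difference between arms could not be fitted within the scan day. No paired analysis was possible because the labels carry no replicate numbers, and the random block by time had a correlation of 0.10.

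The waves of 582 and 537 probe sets held 2317 and 2539 at a rise of 0.5, 64 and 44 at a rise of 2, and 336 in control with the deposited scaling. Read in the other arm, the control wave had 11 over 2-fold lower and 5 higher at a rise of 2, and 9 higher with the deposited scaling. The aldosterone wave had 64 lower and 22 higher at a rise of 0.5, and 14 and 1 at a rise of 2.

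Of 3120 values of 99 named probe sets under alternatives, 3027 kept direction and call, 81 passed where the main one had not, and 12 in 4 genes turned. Hebp1 had 0.50 in control alone, 0.17 after dropping 2 h, and -0.73 to 0.0049 without single arrays. Cxcl9 had -0.82 in control alone, -0.013 after dropping 5 h, and -0.37 to 0.77 without single arrays. Pck1 had 0.34 in aldosterone alone, 0.29 after dropping 2 h, and 0.28 after dropping 5 h. With the mean of Adipoq, Car3 and Retn as a covariate Pck1 had 0.074. Sdk2 had -0.26 in aldosterone alone. The cause was not tested. With 4 arrays a window, on 3 scan days, smaller changes could not be told from the spread.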
